A study of Homo sapiens with 9 samples.

Results

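GSR and HMOX1 are 2 redox genes among the 14884 genes with a symbol that could be followed on these arrays. GSR encodes glutathione reductase and HMOX1 encodes heme oxygenase 1. They were chosen from earlier results on the same arrays, by their measured differences between the transfected groups, so their differences are described here with an error and with no p-value. Each gene is read by 1 feature of the array, a group of probes summed to a single log2 signal, so no choice between features was needed. The cells were BT-549, a human triple-negative breast cancer line, all grown in the same medium and all exposed to the same lipid reagent. Mock cells received the reagent without RNA, negative control cells received 50 nM of a non-specific small RNA, and mimic cells received 50 nM of mature miR-150-5p. Medium was replaced after 24 h and total RNA was taken at 72 h, with 3 samples per group and 9 arrays in all. The line is the only cell type studied, and nothing in the labels ties the 3 samples of a group to separate cultures. SEs and p-values therefore cover the spread among these samples only, and that spread may be technical.

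Glutathione is the main small thiol of the cell. Peroxidases oxidise it when they remove peroxides, and glutathione reductase, a flavoprotein, returns it to the reduced form with electrons from NADPH. Heme oxygenase 1 opens the heme ring and releases iron, carbon monoxide and biliverdin, which biliverdin reductase turns into bilirubin. HMOX1 is the inducible form of the enzyme and HMOX2 the constitutive one. Both GSR and HMOX1 are textbook targets of NRF2 (gene NFE2L2), a transcription factor held down by KEAP1 until oxidants or electrophiles free it, and HMOX1 is in addition repressed by BACH1 when heme is scarce.

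Array medians lay between 2.43 and 2.48, and correlations of 2 arrays over all features (Pearson's r; features are not replicates) ran from 0.981 to 0.989 within groups and from 0.977 to 0.986 between them. Of the markers of the line, the mesenchymal genes VIM (8.47 to 9.38) and FN1 (8.16 to 9.48) were bright on every array, while the receptor genes ESR1 (1.96 to 2.37) and PGR (1.77 to 1.85) and the epithelial gene EPCAM (1.64 to 2.01) read below the median of the arrays. The luminal keratin gene KRT18 (7.31 to 7.75) and GATA3 (5.04 to 6.11) were read above it. The leukocyte and endothelial markers CD14, PECAM1 and VWF stayed between 1.96 and 2.80. Small RNAs of the nucleolus and Cajal bodies, averaged over 23 genes, set 2 control arrays apart, at 6.78 on mock 2 and 6.83 on negative control 2, against 5.62 to 5.91 on the other control arrays and 5.95 to 6.75 on the mimic arrays.

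GSR was lower in the mimic cells than in either control. Its log2 signal was 7.60, 7.59 and 7.82 on the mock arrays, 7.88, 7.64 and 7.98 on the negative control arrays, and 6.36, 6.50 and 6.42 on the mimic arrays. All 3 mimic arrays lay below all 6 control arrays, with a gap of 1.1 between the nearest arrays in either comparison, whereas mock and negative control arrays overlapped. The group means were 7.67 ± 0.13 (SD, n = 3) in mock, 7.83 ± 0.17 in negative control and 6.43 ± 0.073 in mimic. Against the negative control the difference was -1.41 ± 0.11 (SE), or 2.65-fold lower, and against mock it was -1.25 ± 0.11, or 2.37-fold lower. The negative control stood 0.16 ± 0.11 above mock, a difference of about the size of the SDs. The numbers were taken to pair the control arrays because same-numbered arrays deviated together in these data. The labels do not give this pairing, and it was not tested. By number the negative control stood above mock by 0.28, 0.048 and 0.16, the same sign in 3 of 3 pairs (mean 0.16, SD 0.11). With the replicate number as a block the difference was not called (0.16 ± 0.11, and 0.16 ± 0.090 in the 6 control arrays alone). The order of the means was therefore negative control, mock and mimic, with the arrays of the first pair overlapping. By size of fall GSR held place 9 of 14884 against the negative control and place 27 against mock. The arrays are of bulk RNA, so a lower level in all cells and its loss from some of them cannot be told apart.

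HMOX1 took another order. It read 8.10, 8.13 and 8.12 on the mock arrays, 7.62, 7.49 and 7.48 on the negative control arrays, and 8.41, 8.24 and 8.49 on the mimic arrays. No arrays of any pair of groups overlapped: the negative control arrays were lowest, the mock arrays lay between and the mimic arrays were highest. The means were 8.11 ± 0.016 (SD, n = 3) in mock, 7.53 ± 0.078 in negative control and 8.38 ± 0.13 in mimic. The mimic exceeded the negative control by 0.85 ± 0.086 (SE), or 1.8-fold, and exceeded mock by 0.27 ± 0.086, or 1.2-fold. The negative control was below mock by -0.59 ± 0.086, or 1.5-fold lower. By number the differences of negative control from mock were -0.48, -0.64 and -0.63 (SD 0.092). So the distance of HMOX1 between mimic and negative control holds a larger step from mock down to the negative control and a smaller one from mock up to the mimic. By size of rise it held place 67 of 14884 against the negative control and place 1812 against mock, and by size of fall place 161 for the negative control against mock.

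**Figure D1:**
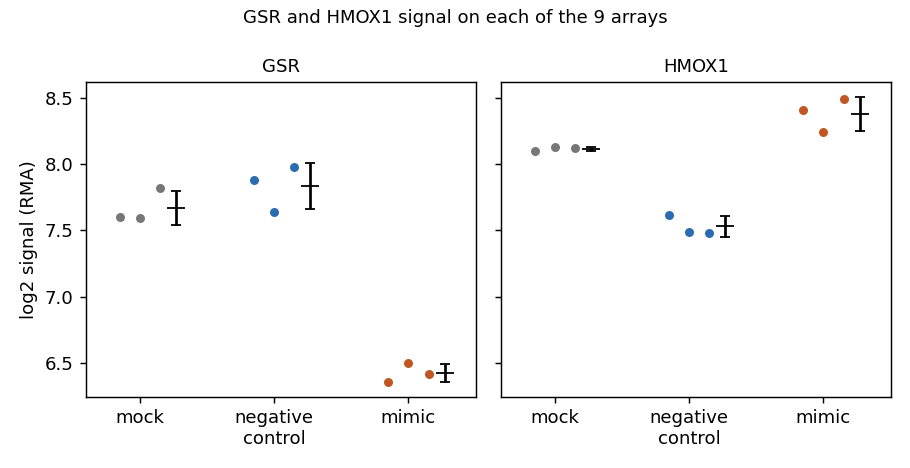
Log2 signal of GSR (left) and HMOX1 (right) on each array, by group, with the group mean and SD (n = 3) as a bar beside the points. The mimic arrays of GSR (6.36 to 6.50) lie below all control arrays, while for HMOX1 the negative control arrays (7.48 to 7.62) are lowest and the mimic arrays (8.24 to 8.49) highest.

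In the limma fit across all 14884 genes, with a gene called at an adjusted p under 0.05 (Benjamini-Hochberg), GSR was called lower and HMOX1 higher in the mimic against the negative control, where 3.18% of all genes were called and 18.6% had arrays that did not overlap. Against mock GSR was called and HMOX1 was not, beside 3.90% of all genes called and 20.2% with no overlap. For the negative control against mock HMOX1 was called and GSR was not, beside 0.645% of all genes called and 12.0% with no overlap. Since these contrasts were known when the genes were proposed, nothing is read from those counts. With 1 array left out at a time the counts over all genes ranged from 199 to 431 beside 473 for the mimic against negative control, from 188 to 650 beside 580 against mock and from 21 to 112 beside 96 between the controls, where the replicate block left 61 in the fit of all arrays and 0 in the 6 control arrays alone (limma; 1735 of the 14884 genes had an unadjusted p under 0.05 in the latter). The 3 comparisons share arrays and are not separate evidence for a gene. The call of HMOX1 in the negative control against mock was the less stable one. It was lost without mock 1, mock 3, negative control 2 or negative control 3, although the difference stayed between -0.63 and -0.56 with any 1 array removed. It was also lost with the replicate number as a block (-0.59 ± 0.092, and -0.59 ± 0.087 in the 6 control arrays alone) and in a fit of those 6 arrays with no block (-0.59 ± 0.074). The calls of GSR against each control and of HMOX1 in the mimic against the negative control were kept under all 18 alternatives tried for each. The signal filters and the adjustment over all features were not among those 18. That adjustment cut the count over all genes from 473 to 180 in the mimic against the negative control. As the genes were chosen by these differences, the kept calls describe these arrays and do not test the genes.

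The control arrays that stood apart in small nucleolar RNA gave the lowest GSR value of their group, 7.59 on mock 2 and 7.64 on negative control 2. Mock 1 was as low, at 7.60. Mimic 3, with a small RNA mean of 6.75, read 6.42 for GSR, above mimic 1 at 6.36 with a mean of 6.43. Without mock 2 and negative control 2, GSR in the mimic differed by -1.50 ± 0.099 from the negative control and by -1.29 ± 0.099 from mock. The control arrays kept there had small RNA means of 5.62 to 5.91, all below the mimic arrays at 5.95 to 6.75. In that fit the mimic and the small RNA mean therefore cannot be told apart. With the mean of those RNAs as a covariate the differences were -1.38 ± 0.092 and -1.18 ± 0.096. In HMOX1 the mimic differed from the negative control by 0.83 ± 0.10 without those 2 arrays and by 0.84 ± 0.089 with the covariate. The negative control differed from mock by -0.56 ± 0.11 without them, where its call was lost, and by -0.59 ± 0.089 with the covariate, where it was kept.

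**Figure D2:**
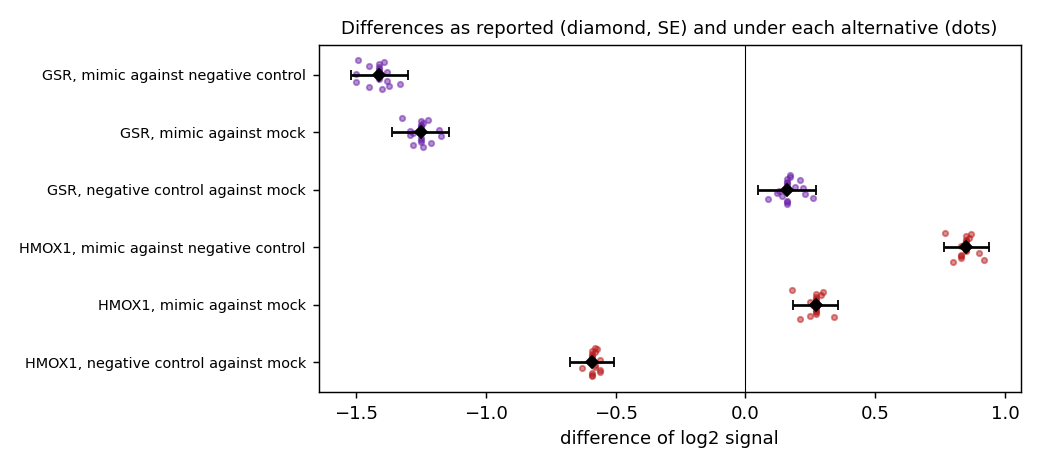
Difference of log2 signal for GSR and HMOX1 in each comparison, as reported (diamond, with its SE) and under each alternative of processing (dots). GSR stays between -1.50 and -1.33 for mimic against negative control and HMOX1 between 0.77 and 0.92, and no dot crosses 0.

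The other genes of the same pathways were taken from 9 lists written from general knowledge, with 218 symbols besides GSR and HMOX1, of which 135 were measured. In the mimic against the negative control 2 of the 135 rose, 2 fell and 131 did not pass, which is 2.96% called beside 3.18% of all genes, with a median difference of -0.035 beside -0.0044. Against mock 1 rose, 4 fell and 130 did not pass, which is 3.70% beside 3.90% of all genes. For the negative control against mock 0 rose and 1 fell, which is 0.741% beside 0.645%. In the fit as reported the shares called were near those of all genes. At an unadjusted p under 0.05, the background for the lists below, stood 16.0%, 17.5% and 11.0% of all genes in the mimic against negative control, the mimic against mock and the negative control against mock, beside 20.0%, 18.5% and 14.1% of the 135. The counts of calls moved with single arrays. Against the negative control 1 gene was called without mimic 1 and 2 without mimic 2, and against mock 1 was called without mock 1 or mimic 3, 2 without mimic 2, and 3 without mock 2, mock 3, negative control 3 or mimic 1. For the negative control against mock the 1 call remained when mock 2 was left out, and 0 genes were called without any other single array or with the replicate block (limma; 19 of the 135 had an unadjusted p under 0.05 in the fit as reported, and 18 with the block). Quantile-normalized once more, 2 rose and 10 fell against the negative control, which is 8.89% of the 135 beside 3.12% of all genes, so that both the share and the balance of the calls there depend on the scaling. The share was 6.67% beside 4.51% with the small RNA mean as a covariate and 5.19% beside 2.68% without mock 2 and negative control 2.

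Glutathione synthesis and recycling is the pathway of GSR itself, and no other measured gene of it passed the test. Of the 18 genes listed besides GSR, 11 were measured, so the pathway is covered in part. These were GSS, GGCT, GGT5, GGT7, GLRX, GLRX2, GLRX3, GLRX5, GLO1, HAGH and OPLAH. The synthesis genes GCLC and GCLM were not analysed here, so the list says little about synthesis itself. Of 11 measured genes besides GSR, 0 were called in any comparison by limma, and 0, 0 and 1 had an unadjusted p under 0.05 in the mimic against negative control, the mimic against mock and the negative control against mock. Their differences ran from -0.22 to 0.34 against the negative control and from -0.17 to 0.34 against mock, with medians of 0.054 and 0.15. GSS, which joins glycine to complete glutathione, read 6.03 in mock, 6.24 in negative control and 6.27 in mimic (mimic against negative control 0.03 ± 0.13, adjusted p = 0.95). GLRX3, a glutaredoxin, was at 0.34 ± 0.19 against the negative control (adjusted p = 0.44) and is named after its value was seen. Of 20 listed NADPH-supplying enzymes that feed glutathione reductase 10 were measured. Of these 0 were called in any comparison, with 2, 2 and 1 at an unadjusted p under 0.05 (limma). Among these TKT, transketolase of the pentose phosphate pathway, was at -0.52 ± 0.13 against the negative control (adjusted p = 0.078), also named after its value was seen.

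The enzymes that spend glutathione included 1 that was called, in 1 comparison. GPX4, which reduces lipid peroxides in membranes with glutathione, fell in the mimic against the negative control by 0.96 on the log2 scale (SE 0.12, adjusted p = 0.0042). Its signal was 7.92, 8.16 and 8.01 on mock, 8.51, 8.84 and 8.50 on negative control and 7.84, 7.50 and 7.65 on mimic arrays. No groups overlapped, and the negative control was the highest of the 3. Against mock the mimic was at -0.36 ± 0.12 (adjusted p = 0.16) and the negative control at 0.59 ± 0.12 (adjusted p = 0.077). Quantile-normalized again, GPX4 was also called higher in the negative control against mock. GPX1, the main cytosolic glutathione peroxidase, was at -0.21 ± 0.12 against the negative control (adjusted p = 0.45) and at 0.18 ± 0.12 against mock (adjusted p = 0.50). In the fit as reported GPX4 was the 1 of the 27 measured peroxidases and transferases called in the mimic against the negative control, and 0 were called in the other comparisons. An unadjusted p under 0.05 (limma) was held by 4 in the mimic against negative control, 1 in the mimic against mock and 3 between the controls.

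The heme pathway around HMOX1 showed no other called gene in the fit as reported, with 11 of 25 other listed genes measured. Of 11 measured genes besides HMOX1, 0 were called in any comparison, and 2, 3 and 2 had an unadjusted p under 0.05 in the order used above. HMOX2, the constitutive heme oxygenase, read 4.43 in mock, 4.52 in negative control and 4.44 in mimic, and its arrays overlapped in every comparison (mimic against negative control -0.08 ± 0.098, adjusted p = 0.75). Of the biliverdin reductase genes, BLVRA was at 0.10 ± 0.088 (adjusted p = 0.67). BLVRB read 6.07, 6.15 and 5.95 on negative control and 5.68, 5.38 and 5.45 on mimic arrays, a difference of -0.56 ± 0.14 that did not pass (adjusted p = 0.069) and that was called once the arrays were quantile-normalized again. That difference was on the other side of 0 from that of HMOX1, but it was not called in the fit as reported. UROD, an enzyme of heme synthesis named after its value was seen, was at 0.65 ± 0.20 against mock (adjusted p = 0.12). Of 26 listed genes of iron storage and uptake, which handle the iron that heme breakdown frees, 13 were measured. Of these 0 were called in any comparison as reported, with 2 at an unadjusted p under 0.05 (limma) in each. Quantile-normalized again, CYBRD1 and FBXL5 of the iron list were called lower against the negative control, and HEBP1 of the heme list was called lower against mock, all named after their calls were seen. In the fit as reported the differences of the 13 iron genes ran from -0.49 to 0.11 in the mimic against the negative control. The ferritin genes FTH1 and FTL and the heme synthesis gene ALAS1 were not analysed here.

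**Figure D3:**
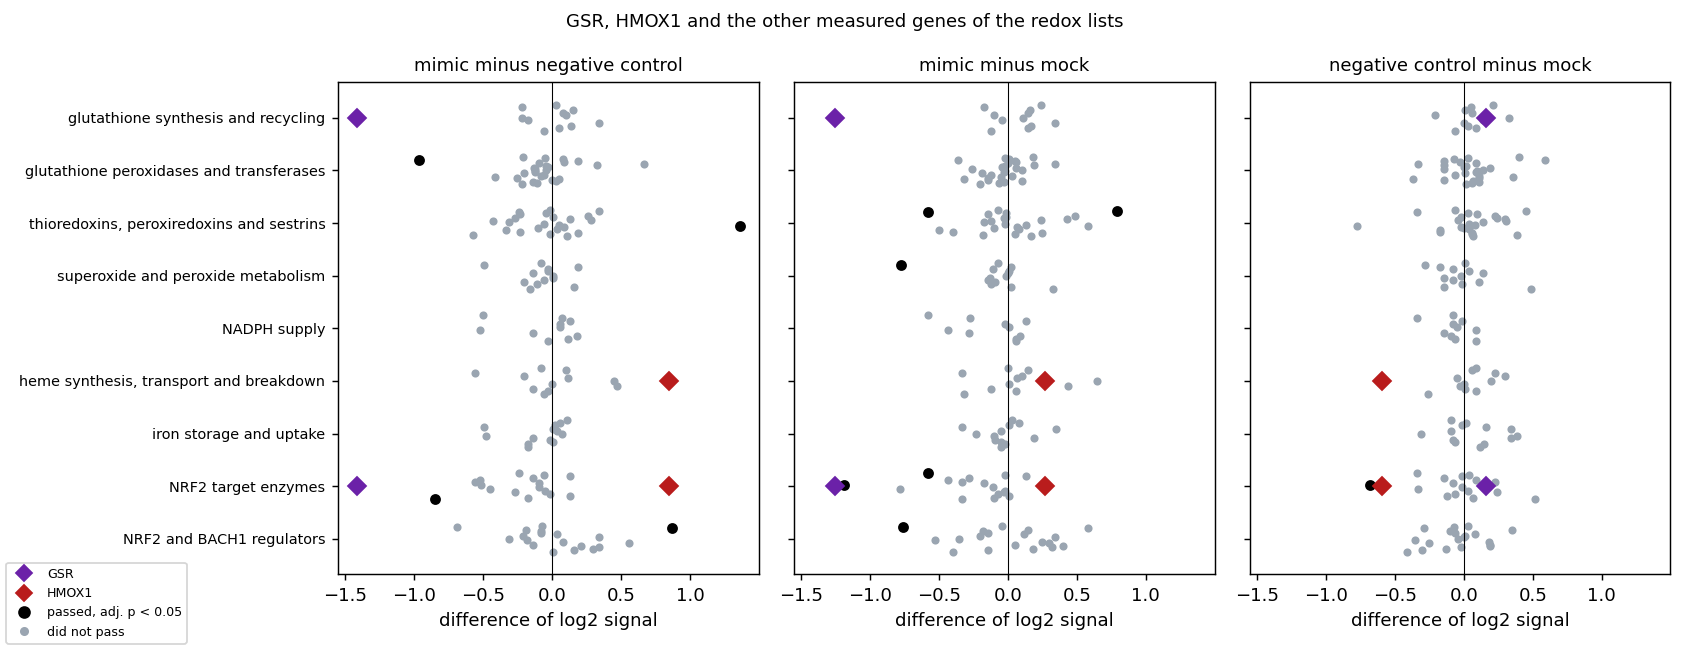
Differences of log2 signal for each measured gene of the 9 lists (dots, black where called at an adjusted p under 0.05), with GSR and HMOX1 as diamonds in the lists that hold them. GSR lies at -1.41 and -1.25 in the mimic comparisons, outside the range of the other measured genes of the glutathione synthesis and recycling list. HMOX1 lies on the right at 0.85 and 0.27 in those comparisons and on the left at -0.59 in the negative control against mock. Both genes were chosen by these differences, so their place beside the lists is a description and no test.

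NRF2 target enzymes, the list that holds both genes, had 42 other members, of which 16 were measured. In the mimic against the negative control 0 rose, 1 fell and 15 did not pass, with 2 above and 14 below 0 and a median of -0.15 beside -0.0044 over all genes. Against mock 0 rose, 2 fell and 14 did not pass, again with 2 above and 14 below and a median of -0.14 beside 0.00035. For the negative control against mock 0 rose and 1 fell, with 7 above and 9 below and a median of -0.010. The shares called in this order were 6.25%, 12.5% and 6.25%, beside 3.18%, 3.90% and 0.645% of all genes. At an unadjusted p under 0.05 (limma) stood 4, 5 and 3 of the 16, beside 16%, 17.5% and 11% of all genes. UGDH, which makes UDP-glucuronate for conjugation of drugs and bilirubin, fell against mock by 1.19 on the log2 scale (SE 0.12, adjusted p = 0.0012). It read 8.02, 7.67 and 8.07 on mock, 7.31, 7.20 and 7.21 on negative control and 6.85, 6.75 and 6.59 on mimic arrays, with no overlap between groups. Between the 2 controls it fell as well, by 0.68 on the log2 scale from mock to negative control (SE 0.12, adjusted p = 0.041), a call that was lost without each array except mock 2 (adjusted p up to 0.18) and with the replicate block (adjusted p = 0.074), and against the negative control the mimic was at -0.51 ± 0.12 (adjusted p = 0.051). PTGR1, a reductase of prostaglandins and leukotrienes, fell in the mimic against the negative control (-0.85 ± 0.17, adjusted p = 0.027), and this call was lost without mock 1 or any mimic array (adjusted p up to 0.10) and with the replicate block (adjusted p = 0.058). GCLC, GCLM, NQO1 and SLC7A11, further targets of NRF2, were not analysed here.

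Neither NRF2 nor its inhibitor passed the test in its own RNA. NFE2L2, which encodes NRF2, read 6.41 in mock, 6.44 in negative control and 6.37 in mimic (mimic against negative control -0.07 ± 0.11, adjusted p = 0.82). KEAP1 was at -0.19 ± 0.091 against the negative control (adjusted p = 0.35) and at 0.15 ± 0.091 against mock (adjusted p = 0.45). BACH1 was not analysed here. Of 26 listed regulators 19 were measured. Of these 1 rose in the mimic against the negative control, 1 fell in the mimic against mock and 0 were called between the controls. In the same order 7, 6 and 2 of the 19 had an unadjusted p under 0.05 (limma). The shares of all genes at that level were 16%, 17.5% and 11%, and the list was not tested as a set. The one that rose was NFE2L3, a relative of NRF2, by 0.87 ± 0.15 (adjusted p = 0.014, up to 0.059 without mimic 1 or 2). Against mock NFE2L3 did not pass (0.58 ± 0.15, adjusted p = 0.06). The one that fell was NFE2L1, a relative of NRF2 that drives proteasome genes, by 0.76 on the log2 scale (SE 0.18, adjusted p = 0.048). That call was lost without each array except mimic 1, with adjusted p up to 0.14, and with the replicate block (adjusted p = 0.070).

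The thioredoxin system, which runs beside glutathione on the same NADPH, had calls in single genes. Of 24 measured genes of thioredoxins, peroxiredoxins and sestrins 1 rose in the mimic against the negative control. In the mimic against mock 1 rose and 1 fell, and 0 were called in the negative control against mock. In that order 5, 7 and 5 of the 24 had an unadjusted p under 0.05 (limma), beside 16%, 17.5% and 11% of all genes. TXNRD1, the cytosolic thioredoxin reductase and the counterpart of GSR in that system, fell against mock by 0.58 on the log2 scale (SE 0.12, adjusted p = 0.028). The call was lost without mock 1, mock 3, mimic 2 or mimic 3 (adjusted p up to 0.10) and with the replicate block (adjusted p = 0.050). TXNRD1 is also on the list of NRF2 target enzymes, and is counted there too. It read 7.16, 6.78 and 7.06 on mock, 6.64, 6.69 and 6.65 on negative control and 6.57, 6.43 and 6.25 on mimic arrays. Against the negative control TXNRD1 was at -0.24 ± 0.12 (adjusted p = 0.35), where GSR was at -1.41. TXN, its substrate thioredoxin, was at -0.07 ± 0.15 against mock (adjusted p = 0.89). TXN2, the mitochondrial thioredoxin, rose against mock by 0.79 ± 0.15 (adjusted p = 0.021), a call lost without mock 1, mock 2, mimic 1 or mimic 3 (adjusted p up to 0.090). SESN2, a stress-induced sestrin, rose against the negative control by 1.36 ± 0.23 (adjusted p = 0.014, and 0.060 without mimic 1). Against mock SESN2 did not pass in the mimic (0.58 ± 0.23, adjusted p = 0.22, arrays overlapping) or in the negative control (-0.77 ± 0.23, adjusted p = 0.22). Its arrays read 5.27, 5.15 and 5.88 in mock, 4.26, 4.86 and 4.86 in negative control and 6.32, 5.84 and 5.89 in mimic, the same order of group means as HMOX1.

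Of 13 measured genes of superoxide and peroxide metabolism 1 fell in the mimic against mock and 0 were called in the others. An unadjusted p under 0.05 (limma) was held by 3 in the mimic against negative control, 2 in the mimic against mock and 1 between the controls. The one called was CAT, catalase, which breaks down hydrogen peroxide (-0.77 ± 0.17, adjusted p = 0.040). It read 6.14, 5.69 and 6.29 on mock, 5.69, 5.98 and 5.60 on negative control and 5.49, 5.11 and 5.21 on mimic arrays. This call was lost when any array but mock 2 or negative control 2 was removed (adjusted p up to 0.14) and with the replicate block (adjusted p = 0.073). The superoxide dismutase genes SOD1 and SOD2 were not analysed here.

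**Figure D4:**
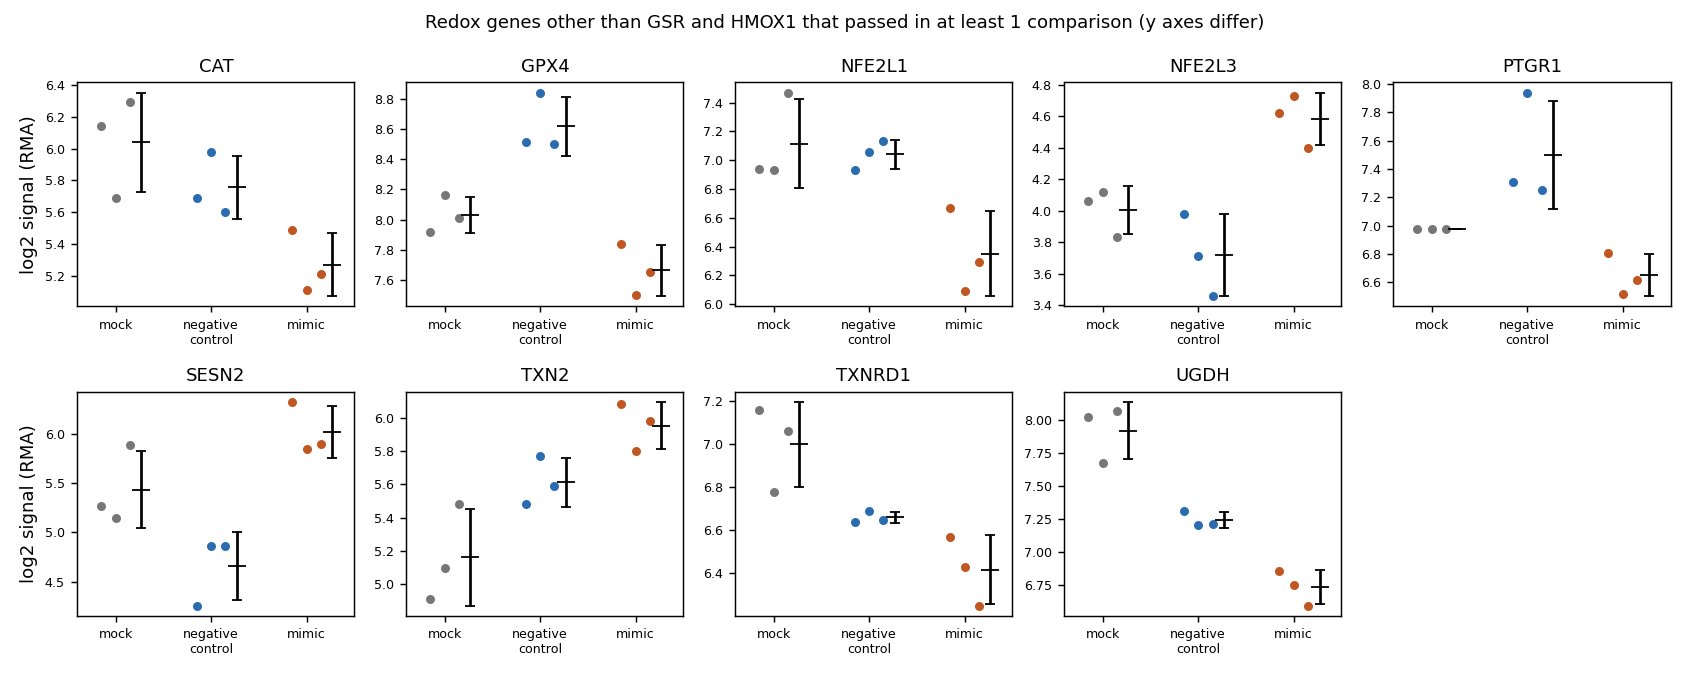
Log2 signal by array for the 9 redox genes other than GSR and HMOX1 that were called in at least 1 comparison, with the group mean and SD (n = 3) beside the points and y axes that differ between panels. The mimic arrays are lowest for CAT, GPX4, NFE2L1, PTGR1, TXNRD1 and UGDH, and SESN2 and NFE2L3 have their lowest mean in the negative control and their highest in the mimic.

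The genes whose profiles were most like those of GSR and HMOX1 were found by the root mean square difference of log2 signal over the 9 arrays, with each gene centred on its own mean, among the 7089 genes whose mean signal reached the median of all genes. The measure is a description, and the points share the grouping of the arrays. Nearest to GSR were the carbonic anhydrase gene CA12 (0.15), THBS1 (0.16), which encodes the matrix protein thrombospondin 1, and GXYLT2 (0.17), a xylosyltransferase. They were followed by DDOST (0.18), a subunit of the oligosaccharyltransferase of the endoplasmic reticulum, and CPD (0.20), carboxypeptidase D. The median gene lay at 0.68 from GSR, and a flat profile would lie at 0.64. Nearest to HMOX1 were the pseudogene CEP170P1 (0.098), MCL1 (0.12), a survival protein of the BCL2 family, and CASD1 (0.12), a sialic acid acetyltransferase. SMURF2 (0.13), a ubiquitin ligase of TGF-beta signalling, and TMEM33 (0.13), a membrane protein of the endoplasmic reticulum, came next. The median gene lay at 0.39 from HMOX1 and a flat profile at 0.36. None of these 10 genes is in the redox lists.

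**Figure D5:**
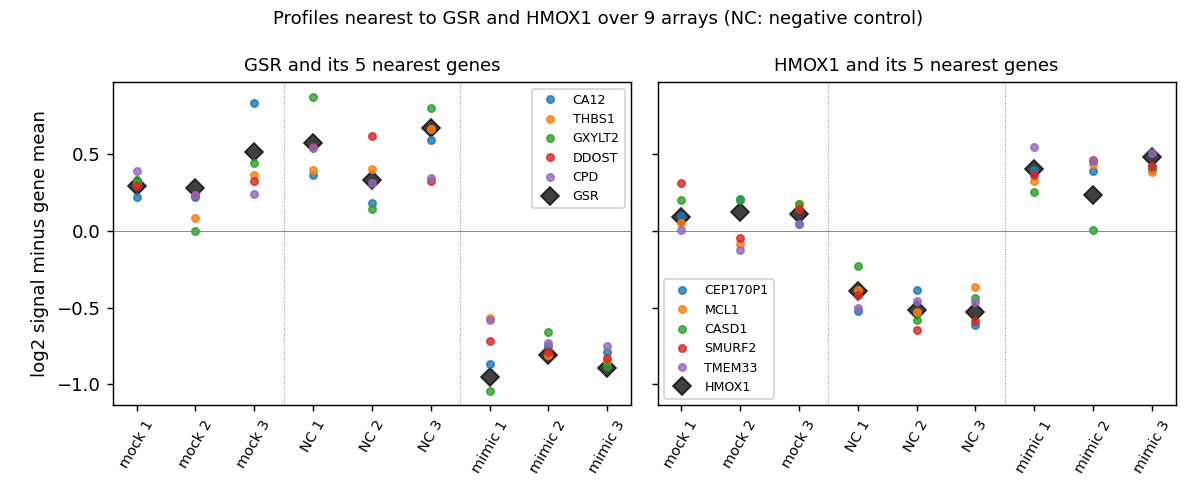
Log2 signal minus the gene's own mean on each of the 9 arrays for GSR (left) and HMOX1 (right), as black diamonds, and for the 5 genes nearest to each. The genes near GSR are all lowest on the mimic arrays, and those near HMOX1 are all lowest on the negative control arrays.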

How the data were processed

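Whole-transcript arrays (Affymetrix Human Gene 2.0 ST) measured total RNA of 9 BT-549 samples, 3 per group. The authors deposited log2 signals summarised by RMA, per the submitters' processing notes. Its software, version and array definition are not given in those sources. RMA brings arrays to near-identical distributions, so a shift shared by most genes would be removed. Of 53617 features 16098 had 1 gene symbol in the platform annotation, all matched to RefSeq gene IDs (GRCh38.p14, for names only); the brightest feature stood for a gene, which left 14884 genes. limma 3.58.1 in R 4.3.3 (lmFit, eBayes, 1 mean per group, all 9 arrays, 9.6 total degrees of freedom) gave differences, SEs and two-sided p-values, adjusted by Benjamini-Hochberg over all genes of a comparison, and a gene was called at an adjusted p under 0.05. The code was tested on simulated data. The number of arrays limits the precision.

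The members, the lists and the tests were chosen with earlier results of these data known. Named genes are GSR, HMOX1, 20 fixed partner genes, up to 6 called genes per list, and the 5 nearest profiles of each member, which leave out microRNA, small nucleolar and uncharacterised loci. Same-numbered negative control and mock arrays deviated together (r across genes 0.15, 0.23 and 0.15), so by these values their numbers were taken to pair them; the labels do not say so. For the mimic arrays the like values were -0.29 to -0.054. Alternatives were other scalings, filters, variance models, thresholds and sets of arrays, a covariate and the replicate block; the block on the 6 paired arrays alone was added after seeing the data.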

Additional observations from a re-analysis of the deposited data

How the results depend on the processing

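The differences of GSR and HMOX1 kept their sign and moved by less than 1 SD of the replicates under each alternative run; since each has 1 feature, averaging features changed nothing. Quantile-normalized again, GSR stood at -1.49 and -1.32 in the mimic against negative control and mock, and HMOX1 at 0.77 and 0.18. With arrays left out 1 at a time GSR ranged from -1.50 to -1.33, from -1.29 to -1.17 and from 0.088 to 0.26 in the mimic against negative control, mimic against mock and negative control against mock, and HMOX1 from 0.80 to 0.92, from 0.21 to 0.34 and from -0.63 to -0.56. The median of all genes shifted by at most 0.029 under the other scalings, but the split of called genes moved, from 55.4% rising to 37.8% in the mimic against negative control, from 58.4% to 44.6% against mock and from 26% to 41.2% in the negative control against mock, when quantile-normalized again. In the mimic against negative control that median moved by -0.013. Each other redox gene called there moved lower by more. GPX4 went from -0.96 to -1.03, PTGR1 from -0.85 to -0.93, NFE2L3 from 0.87 to 0.81 and SESN2 from 1.36 to 1.26.

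Counts over all genes, in the same order of comparisons, were 473, 580 and 96. They fell to 180, 190 and 37 with all features in the adjustment, to 251, 321 and 18 with only the 6 arrays compared, to 292, 346 and 61 with the replicate block and to 140, 144 and 20 at an adjusted p under 0.01. Against mock 904 were called with array weights and 362 at 1.5-fold or more. For the negative control against mock 150 were called when only genes whose mean signal reached the median were kept, 153 with the small nucleolar RNA mean as a covariate, 28 without mock 2 and negative control 2 together, and 0 in the 6 paired arrays with the replicate block. Leaving out 1 array gave 199 to 431, 188 to 650 and 21 to 112. The arrays that moved the count by over 1.5 times were mock 1, negative control 1 and 3 and each mimic array in the mimic against negative control, mock 1, mock 2 and each mimic array against mock, and mock 1, mock 3, each negative control array and mimic 3 between the controls.

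Counts of the other redox genes were 4, 5 and 1. In the mimic against negative control they became 12 when quantile-normalized again, 10 at or above the median signal, 9 with the covariate, 7 without mock 2 and negative control 2, 1 with all features in the adjustment and 1 at an adjusted p under 0.01, with 1 to 6 when 1 array was left out. Against mock they became 8 at or above the median signal, 1 with all features, 2 with only the 6 arrays and 1 at an adjusted p under 0.01, with 1 to 5 when 1 array was left out. For the negative control against mock they became 2 when quantile-normalized again, 2 at or above the median signal, 3 with the covariate and 0 under median centring, all features, only the 6 arrays, either replicate block, without mock 2 and negative control 2, and at an adjusted p under 0.01, with 0 to 1 when 1 array was left out. At or above the median signal 93 of the 135 redox genes remained. Of these 10.8%, 8.6% and 2.15% were called in the same order of comparisons, beside 7.98%, 11% and 2.02% of all genes kept. The counts over all genes there were 594, 818 and 150. For the negative control against mock with the covariate the share was 2.22% beside 1.03%. The cause of the moves in these counts was not tested. The replicate block changed no other call of GSR or HMOX1 than the one given for HMOX1. With 3 arrays per group, the depth of a signal over background is not known here.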
